A study of Drosophila melanogaster with 4 samples.

Results

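Glia are the supporting cells of the nervous system, and 10 genes that mark them or build the barrier around the fly retina were followed in eye-antennal imaginal discs of wild-type and glass mutant larvae. The genes were taken by name, namely repo, gcm, moody, loco, Mdr65, Eaat1, Gs2, wrapper, ogre and bnb, and all 10 were found by their FlyBase identifiers among the 14885 genes of the count tables. RNA came from discs of wandering larvae of the third instar, the tissue that makes the adult eye and antenna. The wild-type group held 1 library of the strain CantonS (Canton S below) and 1 of the strain RAL-208, which the study counts as biological replicates. The mutant group held 2 libraries of gl[60j], a strain that carries a glass mutation, and these are counted as technical replicates. The mutant group therefore stands for 1 sample, and the genotype cannot be told apart from the genetic background of its strain.

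In the developing eye, glia are not born in the disc itself. They enter it through the optic stalk and spread along its basal face beneath the photoreceptors, where wrapping glia ensheath the axons and flat subperineurial glia seal the retina with septate junctions. The layer they form keeps blood and neural tissue apart and is called the blood-eye barrier. Glass is a zinc finger transcription factor that photoreceptor cells need in order to differentiate, so a comparison of these genotypes asks how glial genes stand in a disc whose photoreceptors do not mature.

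Reads assigned to genes numbered from 11292175 to 27044633 per library, and all 10 genes passed the filter on low counts. The gl transcript itself was at 299 and 235 CPM (reads scaled to a common total of gene reads) in Canton S and RAL-208, while the mutant libraries gave 105 and 108. Over all genes tested, the median absolute log2 ratio was 0.068 between the mutant libraries and 0.17 between the wild-type strains. Among the gene lists examined, larval fat body genes had the lowest median in the mutant. Their summed level was 21119 CPM in Canton S and 12242 in RAL-208, but 2987 and 2896 in the mutant libraries. Fewer cells of a type and less RNA per cell cannot be told apart in these bulk samples.

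The glial genes did not differ in 1 direction. Eaat1, Mdr65 and wrapper were lower in the mutant, by 10.9-fold, 2.93-fold and 2.68-fold on mean CPM, whereas repo, ogre and bnb were 1.31-fold, 1.51-fold and 1.71-fold above the wild types. With the mutant libraries summed, edgeR's quasi-likelihood test with Benjamini-Hochberg adjustment called 0 of the 10 genes at an adjusted p under 0.05, against a background of 0.0% of 9059 genes. The unadjusted p was under 0.05 for 4 genes below wild type (Eaat1, Mdr65, wrapper and loco), where 10.2% of all genes were, and for 1 gene above it (ogre), where 6.44% of all genes were. DESeq2 on the same columns called Eaat1 and Mdr65 lower and ogre higher, against 4.27% of all genes called lower and 1.67% called higher. Entering the mutant libraries as separate samples called 4 of the genes lower (Eaat1, Mdr65, wrapper and loco) and ogre higher, against 11.3% and 8.05% of all genes, with p-values that are too small because technical replicates count as samples. The mutant sample has no biological replicate, so both tools take its spread from the wild-type strains.

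**Figure D1:**
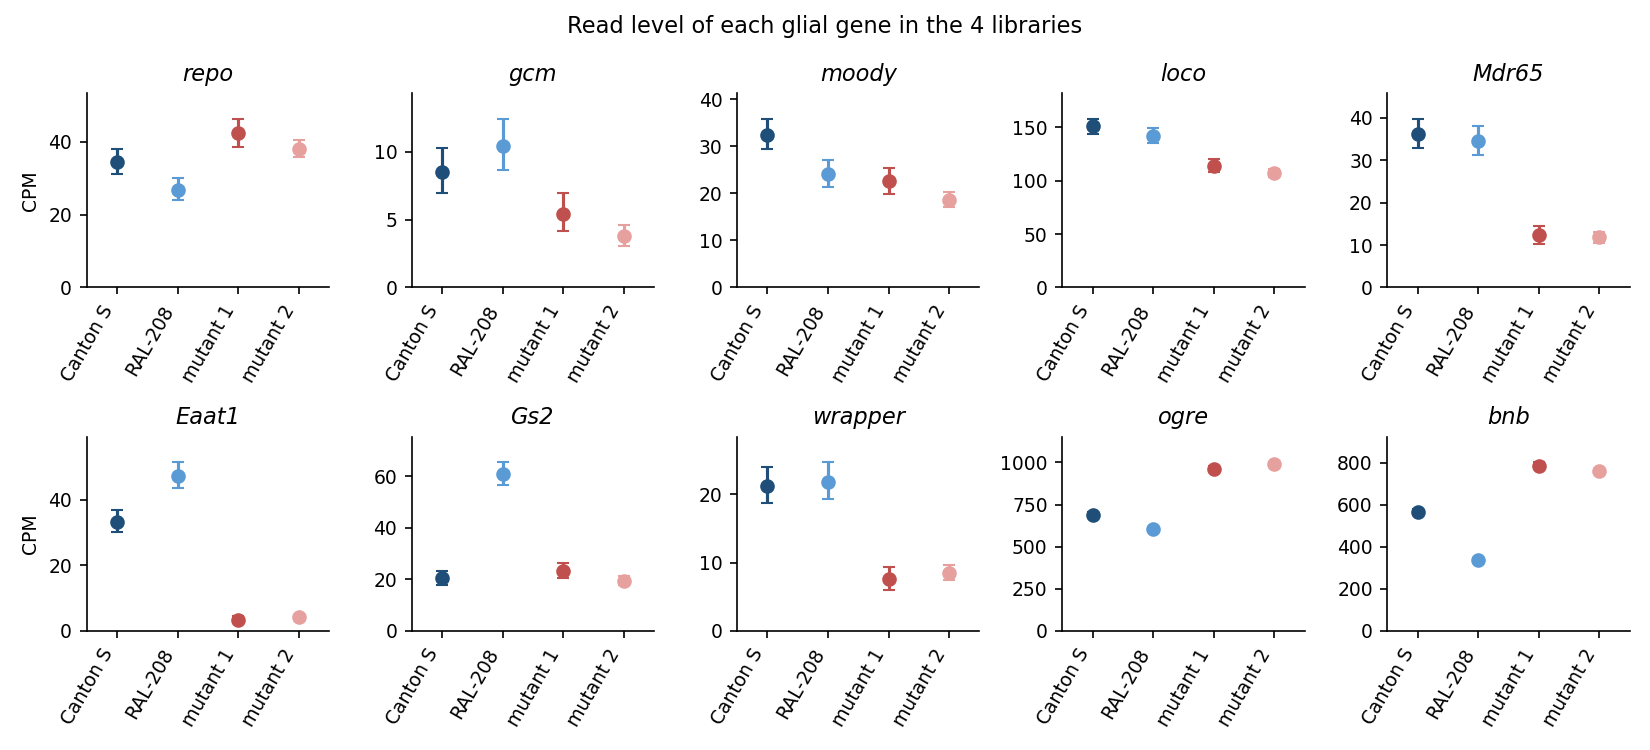
Level of each gene in CPM (y axes from 0, each with its own scale) in the Canton S, RAL-208 and both glass mutant libraries, with bars for the exact 95% Poisson interval of the read count, which covers counting error only. Eaat1, Mdr65 and wrapper lie far below both wild types in the mutant, repo, ogre and bnb lie above them, and Gs2 is high in RAL-208 alone.

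The regulators that set glial fate stood on opposite sides. gcm (glial cells missing, FBgn0014179, arm 2L) encodes the transcription factor that starts glial fate in the fly embryo and is also used in blood cells and in the optic lobe. Canton S gave 8.50 CPM and RAL-208 10.4, whereas the mutant libraries gave 5.402 and 3.77. The groups did not overlap, and gcm was the scarcest of the 10 genes in wild type, with 61 to 123 reads in each of the 4 libraries. edgeR fitted a log2 fold change of -1.08 (SE 0.39, adjusted p 0.314), and the DESeq2 adjusted p was 0.602.

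repo (reversed polarity, FBgn0011701, arm 3R) encodes a homeodomain protein found in the nuclei of nearly all glia outside the midline, and is the usual marker of glial nuclei. Its level was 34.4 CPM for Canton S and 26.9 for RAL-208, and the mutant libraries had 42.3 and 38.1. Both mutant libraries lay above both wild types, although the nearest pair differed by only 1.11-fold and the wild-type strains differed from each other by 1.28-fold. The edgeR log2 fold change of 0.43 (SE 0.22) had an adjusted p of 0.439, beside 0.862 in DESeq2. repo was thus above wild type in these libraries and gcm below, but neither difference passed the test.

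Among the genes of the barrier, the transporter stood farther from wild type than the receptor and its regulator. moody (FBgn0025631, X chromosome) encodes a G protein-coupled receptor of subperineurial glia that is needed to seal the blood-brain and blood-eye barriers. Canton S had 32.4 CPM of moody and RAL-208 24.1, and the mutant libraries had 22.5 and 18.6. The highest mutant library lay only 1.07-fold below RAL-208, a smaller gap than the 1.34-fold between the wild-type strains. By edgeR the log2 fold change was -0.45 (SE 0.28, adjusted p 0.510).

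loco (locomotion defects, FBgn0020278, arm 3R) encodes a regulator of G protein signalling that acts with moody in barrier glia. Its level was 151 and 142 CPM in the wild-type strains, and the mutant libraries had 114 and 107. The mutant libraries were 1.25-fold to 1.41-fold below the wild types in every pairing. edgeR's log2 fold change was -0.35 (SE 0.12), its unadjusted p 0.0485 and its adjusted p 0.297. On these values both genes of the receptor pathway were present in the mutant at 72.6% (moody) and 75.5% (loco) of their mean wild-type CPM.

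Mdr65 (FBgn0004513, arm 3L), an ABC transporter related to the mammalian P-glycoprotein, pumps foreign compounds out at the fly blood-brain barrier. Both wild types had similar levels, 36.2 CPM for Canton S and 34.5 for RAL-208, and the mutant libraries had 12.3 and 11.8. The wild-type strains were within 1.05-fold of each other, and every pairing of a mutant with a wild-type library gave a fold between 2.80 and 3.07. The fitted log2 fold change of -1.49 (SE 0.20) had an adjusted p of 0.209 with edgeR, and DESeq2 gave an adjusted p of 0.00316.

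Genes of glutamate handling differed in how firmly they could be read. Eaat1 (FBgn0026439, arm 2L) encodes the glial transporter that clears glutamate, and was farthest from wild type among the 10 genes. It had 404 reads in Canton S and 559 in RAL-208, or 33.3 and 47.4 CPM, and only 37 and 111 reads in the mutant libraries, or 3.28 and 4.10 CPM. The counting intervals of the mutant values were 2.31 to 4.52 and 3.38 to 4.94 CPM, well clear of the lowest wild-type bound of 30.2 CPM. The mutant libraries were 8.12-fold to 14.5-fold below the wild types. edgeR's log2 fold change of -3.31 (SE 0.34) was below that of all but 1.28% of the genes tested. Its adjusted p was 0.208 in edgeR and 1.17e-11 in DESeq2, and ranged from 1.17e-11 to 0.428 over the alternatives.

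Gs2 (FBgn0001145, X chromosome) encodes a glutamine synthetase, the enzyme with which glia turn glutamate into glutamine. Canton S had 20.4 CPM and RAL-208 60.7, and the mutant libraries had 23.2 and 19.4. Here the strains differed from each other more than the genotypes did. RAL-208 was 2.98-fold above Canton S, the mutant values bracketed that of Canton S, and only RAL-208 stood apart. A fold of at least 2 between the wild-type strains, on CPM plus 1, was found for Gs2 alone among the 10 genes and for 5.80% of all genes. The log2 fold change against both wild types was -0.90 (SE 0.74, adjusted p 0.616 in edgeR). It was -1.48 against RAL-208 alone and 0.08 against Canton S alone.

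wrapper (FBgn0025878, arm 2R) encodes a membrane protein of the immunoglobulin superfamily with which glia enwrap axons, studied best at the embryonic midline. Its level was 21.2 CPM for Canton S and 21.9 for RAL-208, but 7.53 and 8.54 for the mutant libraries. Wild-type levels were nearly equal, and each mutant library was at least 2.48-fold below each of them. edgeR gave a log2 fold change of -1.31 (SE 0.24, adjusted p 0.212), and the DESeq2 adjusted p was 0.0730.

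The last pair, ogre and bnb, are far more abundant than the others. ogre (optic ganglion reduced, FBgn0004646, X chromosome) encodes Innexin 1, a gap junction protein used by glia and neuroblasts and also by epithelia. Wild-type levels were 688 CPM (Canton S) and 604 CPM (RAL-208), and mutant levels 963 and 989 CPM. The mutant libraries lay 1.40-fold to 1.64-fold above the wild types, and the strains were within 1.14-fold of each other. The log2 fold change by edgeR was 0.68 (SE 0.14, adjusted p 0.216), and DESeq2 gave an adjusted p of 0.00237.

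bnb (bangles and beads, FBgn0001090, X chromosome) was described from its expression in embryonic glia, and the function of its product is poorly known. Canton S had 568 CPM and RAL-208 338, while the mutant libraries had 787 and 761. All mutant values were higher, but the wild-type strains differed by 1.68-fold, about as much as the genotypes did. Its edgeR log2 fold change was 0.83 (SE 0.35, adjusted p 0.367), and the DESeq2 adjusted p was 0.0649. It was 1.26 against RAL-208 alone and 0.50 against Canton S alone.

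**Figure D2:**
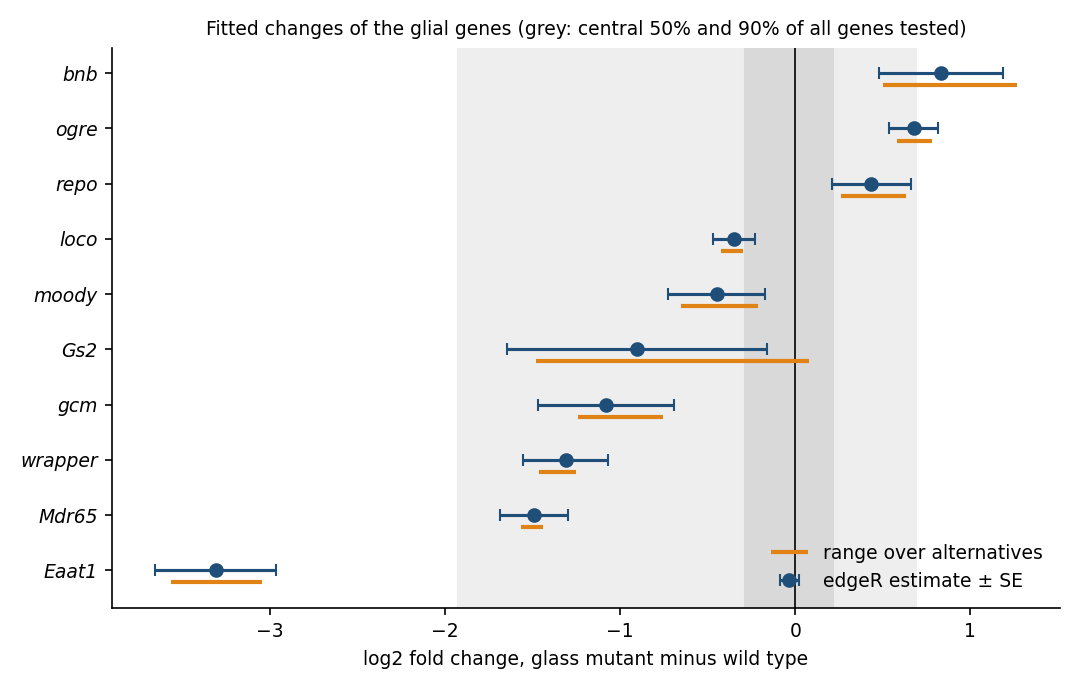
Fitted log2 fold change (x axis, mutant minus wild type) of each gene by edgeR with summed mutant libraries, as points with bars of 1 SE, above orange lines for the range over the alternative settings. Dark grey spans the 25th to 75th and light grey the 5th to 95th percentile of all 9059 genes, from -1.93 to 0.69. Eaat1 lies below the light band and bnb above it, and the orange line of Gs2 alone crosses 0.

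Counted together, 6 of the 10 genes lay below both wild types in both mutant libraries (gcm, moody, loco, Mdr65, Eaat1 and wrapper) and 3 above them (repo, ogre and bnb). Such separation was common, at 41.0% of all genes below and 26.2% above. A separation of at least 2-fold, on CPM plus 1, was found for Mdr65, Eaat1 and wrapper below, against 5.63% of all genes, and for 0 of the 10 genes above, against 1.07%. The count of 3 became 5 without Canton S, when Gs2 below and bnb above joined, but the share of all genes also grew, to 9.69% below and 2.99% above. The median log2 fold change of the 10 genes was -0.68, beside 0.0014 over all genes tested. Their summed level was higher in the mutant, at 1593 and 1310 CPM in the wild-type strains against 1980 and 1961. ogre and bnb, both above wild type, were the most abundant of the 10.

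**Figure D3:**
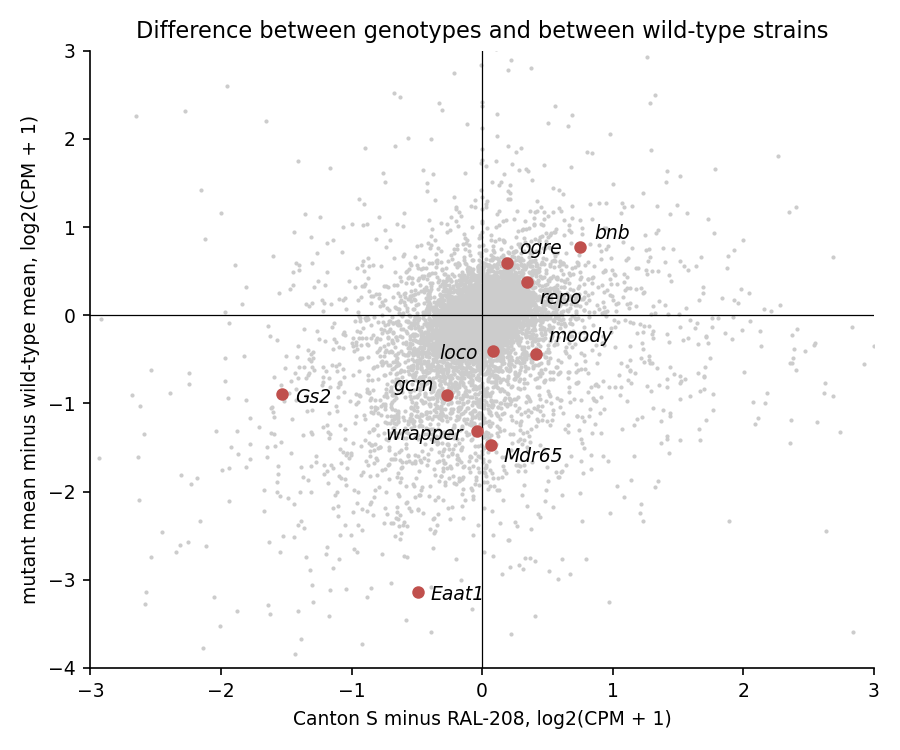
Difference between genotypes (y axis, mean of both mutant libraries minus mean of both wild types, log2 of CPM plus 1) against the difference between wild-type strains (x axis, Canton S minus RAL-208) for all genes tested (grey, 51 outside the plotted range) and the 10 glial genes (red). Mdr65 and wrapper sit near 0 on the x axis and well below 0 on the y axis. Gs2, which was 2.98-fold higher in RAL-208 than in Canton S on CPM alone, lies to the left of 0.

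The levels of the genes relative to each other were compared per length, as CPM per kilobase of merged exons in a BDGP6 annotation, which is not the one the reads were counted on. On this scale bnb and ogre led in wild type, with means of 166 and 164, and their ranges over the strains overlapped. loco (19.1), Gs2 (18.2), Eaat1 (12.9), wrapper (10.9) and repo (10.2) followed, and down to repo each overlapped the next over the strains. Mdr65 (8.55), moody (7.18) and gcm (4.35) came last, with ranges that did not overlap their neighbours in the order. In the mutant bnb, ogre and loco kept the first 3 ranks, repo went from rank 7 to rank 4 at 13.4, and Eaat1 went from rank 5 to rank 10 at 1.18.

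Setting each gene against repo within the same library removes the library size and shows how the glial transcripts stood to each other. For every 100 reads of repo, Eaat1 had 96.9 in Canton S and 176 in RAL-208, but 7.74 and 10.8 in the mutant libraries. Mdr65 had 105 and 128 in the wild-type strains against 29.1 and 30.9, and wrapper had 61.6 and 81.4 against 17.8 and 22.4. These genes were thus 14.8-fold, 3.89-fold and 3.56-fold lower per read of repo. gcm had 24.7 and 38.8 reads per 100 of repo against 12.8 and 9.89, which is 2.80-fold lower. Gs2 had 59.2 and 226 against 54.8 and 51.02, so that Canton S was close to the mutant. The barrier pair differed less. moody had 94.2 and 89.9 reads per 100 of repo against 53.1 and 48.7, and loco had 439 and 530 against 269 and 282. ogre kept a similar ratio to repo, at 1999 and 2249 in the wild-type strains against 2274 and 2594. Since repo itself was higher in the mutant, 72.8% of all genes lay below both wild types on this scale, as did 7 of the 9 genes compared, and 4.54% lay above, as did ogre and bnb.

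**Figure D4:**
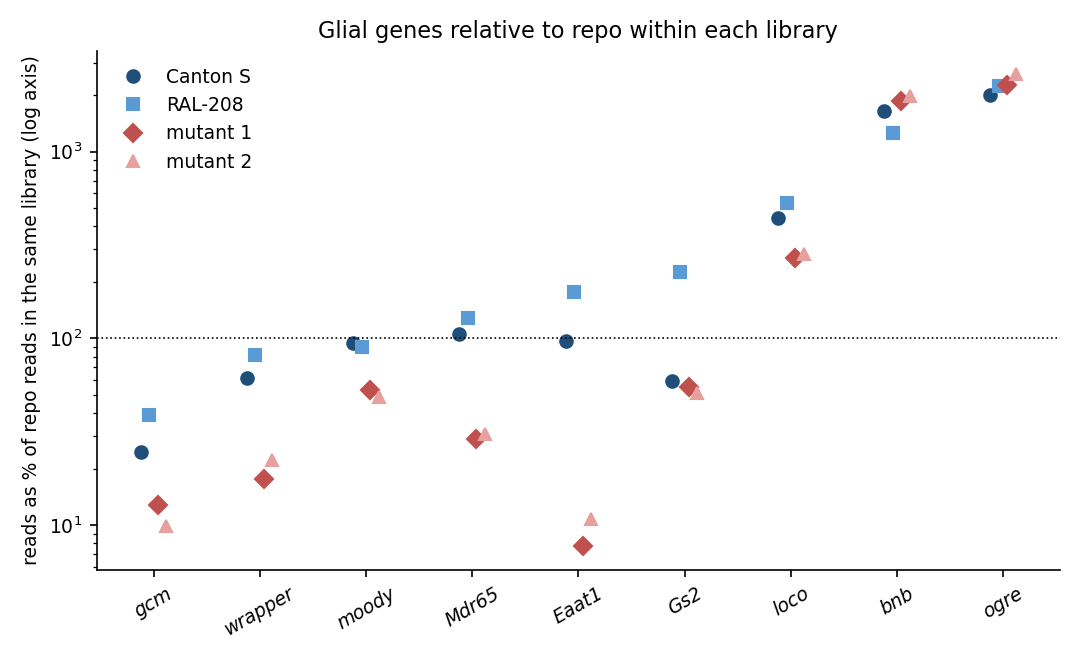
Reads of each gene as a percentage of repo reads in the same library (y axis, log scale; dotted line at 100) for the Canton S, RAL-208 and both mutant libraries. Eaat1, Mdr65 and wrapper lie near the repo line in wild type and at 9.25, 30.01 and 20.1 on average in the mutant, while bnb and ogre stay more than 10 times above it in all 4 libraries.

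Other glial genes were mostly below wild type, with values given here and below as the wild-type strains against the mutant libraries. Of 14 further glial markers, written down with earlier results of these data known, 10 were measured. An unadjusted edgeR p under 0.05 was found for 5 below wild type and 1 above, against 10.2% and 6.44% of all genes. The median log2 fold change was -1.30. In 9 of the 10 both mutant libraries lay below both wild types, where 41.0% of all genes did. Summed, the 10 came to 1003 and 1135 CPM against 963.5 and 956, so the total differed little. DESeq2 called 5 lower (alrm, Gat, Cyp4g15, ana and Vmat) and Gli higher, against 4.27% and 1.67% of all genes. Vmat also stands in the list of central nervous system neurons. Among the glial markers alrm, a marker of astrocyte-like glia, had 11.1 and 22.4 CPM in the wild-type strains against 1.95 and 2.88. Cyp4g15, a cytochrome P450 gene of glia, was at 13.0 and 18.5 CPM against 3.72 and 2.77. ana, whose secreted product is made by glia and restrains neuroblasts, was at 68.6 and 50.1 against 21.96 and 19.6. The most abundant marker was on the other side. Gli (Gliotactin), which also serves the tricellular junctions of epithelia, was at 435 and 374 CPM against 568 and 564, with an adjusted p of 0.245 in edgeR and 0.0425 in DESeq2. The gcm relative gcm2 was at 5.53 and 5.76 CPM against 1.95 and 2.70, and Dr, a homeobox gene, at 11.4 and 17.1 against 9.03 and 8.91. ttk, a repressor gene active in glia and many other cells, was the 1 of 5 measured glial fate genes with an unadjusted p under 0.05, at 374 and 348 against 496 and 494.

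Septate junction genes, which seal the barrier and also the disc epithelium, had small fold changes. The log2 values of the 13 measured genes ran from -0.23 to 0.44, with a median of 0.18. Both mutant libraries lay above both wild types in 8 of the 13 and below in 3, against 26.2% and 41.0% of all genes. DESeq2 called 0, against 4.27% of all genes called lower and 1.67% called higher. An unadjusted edgeR p under 0.05 was found for 1 gene, above wild type, where 6.44% of all genes were. That gene was pck, which encodes the claudin Megatrachea, at 144 and 147 CPM against 187 and 188. Tsf2 was at 311 and 266 CPM against 362 and 359, M6 at 123 and 139 against 149 and 154, and the sodium pump gene Atpalpha at 1116 and 1125 against 919 and 907. The partners of moody had a median log2 fold change of -0.04 over 9 genes. Both mutant libraries lay below both wild types in 5 of the 9 and above in 1, against 41.0% and 26.2% of all genes. Galphao, a G protein subunit gene that neurons use too, was at 156 and 210 CPM against 108 and 106. It was the 1 gene of the 9 with an unadjusted edgeR p under 0.05, below wild type, where 10.2% of all genes were. The protein kinase A genes Pka-R2 (55.4 and 68.2 against 46.7 and 46.1 CPM) and Pka-C1 (312 and 358 against 276 and 259) and the G protein gene Ggamma1 (363 and 349 against 357 and 353) had larger p-values.

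Around Eaat1 and Gs2, other genes of glutamate use lay between little difference and several-fold lower values. Eaat2, which encodes a related membrane transporter, was at 23.4 and 31.8 CPM against 7.79 and 7.76. VGlut, the vesicular glutamate transporter gene of neurons, was at 44.8 and 67.1 against 7.08 and 7.95. gb (genderblind), a glial exchanger subunit gene, was at 52.9 and 63.7 CPM against 36.4 and 35.2. The enzyme gene Gdh was at 342 and 310 against 314 and 307. Of the 5 genes, VGlut, Eaat2 and gb had an unadjusted edgeR p under 0.05, below wild type, where 10.2% of all genes were.

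Relatives of ogre and Mdr65 were measured as well. The partner innexin gene Inx2 was at 1622 and 1410 CPM against 1913 and 1822, an edgeR log2 fold change of 0.36 with an adjusted p of 0.367. Inx7 (0.825 and 1.44 CPM against 1.51 and 1.70) and shakB (2.15 and 2.88 against 2.66 and 3.03) were scarce, and Inx6 had 0 reads in every library. Mdr49, another ABC transporter gene of this family, was at 37.0 and 25.4 CPM against 47.8 and 45.2, on the opposite side of wild type from Mdr65, with an edgeR adjusted p of 0.388. MRP was at 211 and 230 against 194 and 188. Whether Mdr65 and Mdr49 differ from each other in response was not tested.

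Signals that guide glia in the eye disc were measured by 13 genes, of which 2 had an unadjusted edgeR p under 0.05 below wild type and 1 above, at a median of -0.25. These counts are near the 10.2% and 6.44% of all genes. The FGF ligand genes ths and pyr, whose receptor Heartless acts in retinal glia, were at 37.9 and 51.6 CPM against 22.4 and 21.9, and at 30.6 and 33.4 against 22.6 and 18.7. The netrin receptor gene fra was at 436 and 424 against 534 and 536. Their edgeR adjusted p-values ran from 0.247 for ths to 0.270 for pyr.

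**Figure D5:**
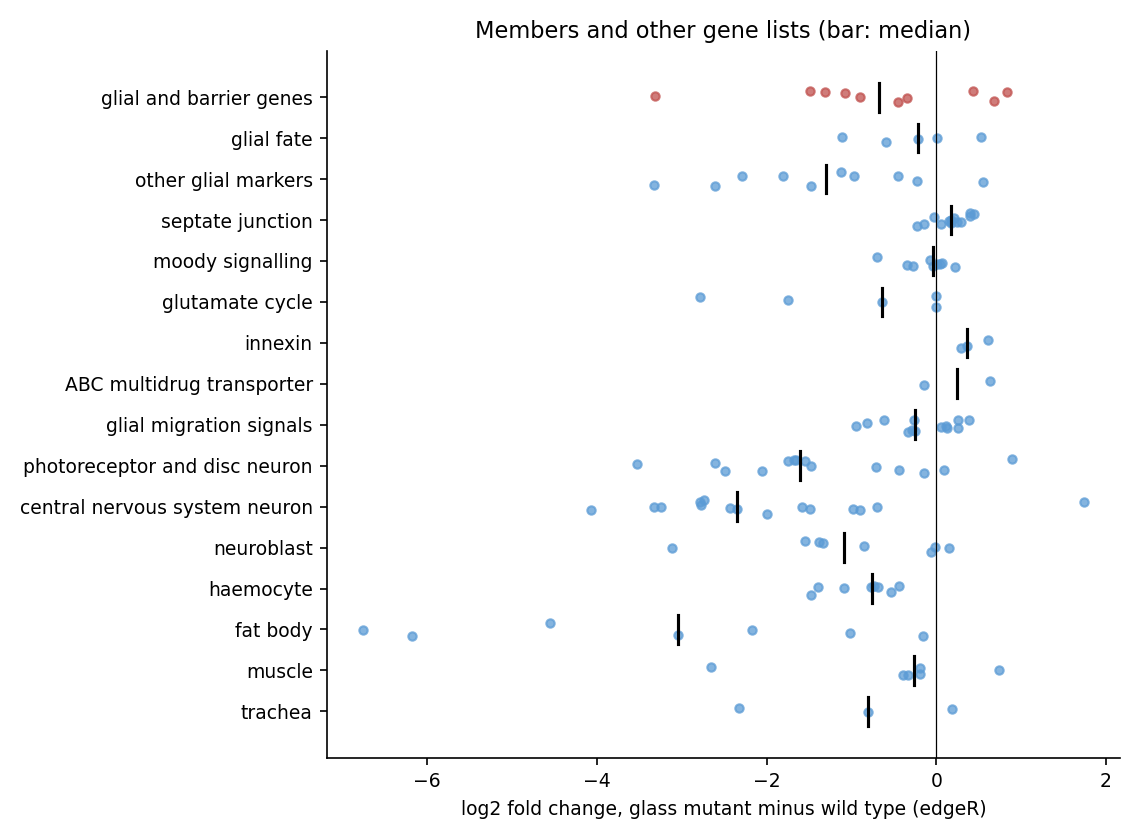
Fitted log2 fold change (x axis, edgeR with summed mutant libraries) of every tested gene in the glial and barrier set (red) and in 15 other gene lists (blue), each with its median as a black bar. Neuronal and fat body lists have medians from -3.04 to -1.60, while septate junction genes lie close to 0.

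Markers of other cell types were read beside the glial genes, and edgeR with summed mutant libraries called 0 genes in each of these lists after adjustment. Of 15 measured genes of central nervous system neurons, 14 had an unadjusted edgeR p under 0.05 below wild type, where 10.2% of all genes were. The median log2 fold change was -2.34, and 1 gene was above 0, at 1.74. Summed, the 15 genes came to 851 and 958 CPM in wild type against 419 and 418. Among them nAChRalpha7, a receptor subunit gene, was at 20.9 and 25.2 CPM against 4.78 and 3.77, brp, a gene of the active zone, at 132 and 104 against 40.0 and 39.7, and CadN at 384 and 426 against 238 and 235.5. Photoreceptor and disc neuron genes had 10 of 14 below wild type by the same rule and 1 above (ro). Among all genes these shares were 10.2% and 6.44%. The photoreceptor and disc neuron list had a median of -1.60, a highest log2 fold change of 0.89, and a summed 1373 and 1536 CPM against 686 and 675. It included jeb (48.8 and 46.1 CPM against 8.15 and 7.10), Syt1 (87.5 and 96.7 against 26.3 and 28.0), scrt (173 and 191 against 54.4 and 55.2) and sev (336 and 287 against 220 and 219).

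The larval brain, which is joined to the disc by the optic stalk, holds neuroblasts as well as many glia. Of 8 neuroblast genes, 4 had an unadjusted edgeR p under 0.05 below wild type, where 10.2% of all genes were. The summed level of the 8 was 665 and 801 CPM against 564 and 549. wor was at 13.0 and 20.1 CPM against 1.24 and 2.03, pros at 145 and 236 against 59.2 and 62.8, ase at 15.7 and 23.3 against 8.24 and 6.58, and grh, also an epithelial gene, at 357 and 342 against 380 and 365. pros, 1 of the 4 genes, also stands in the list of photoreceptor and disc neuron genes, so its value is not particular to neuroblasts. No measured neuron or neuroblast marker was at 0 in all 4 libraries. Their part in the values of Eaat1, Mdr65, wrapper and gcm was not tested.

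Blood cells also use gcm. Of 8 haemocyte genes, 3 had an unadjusted edgeR p under 0.05 below wild type, where 10.2% of all genes were, and DESeq2 called 0. The median of the 8 was -0.75, and their summed level was 460 and 898 CPM against 424 and 399. NimC1 was at 16.5 and 20.0 CPM against 6.996 and 5.88, srp at 38.2 and 42.4 against 23.7 and 21.9, crq at 66.2 and 77.4 against 47.7 and 51.4, and Hml at 149 and 395 against 187 and 175. In Hml, as in Gs2, RAL-208 stood alone above the other libraries. Fat body genes had 4 of 7 below wild type, at a median of -3.04. Lsp1gamma was at 3841 and 4944 CPM against 56.7 and 57.7, and apolpp at 1329 and 1745 against 188 and 173. Lsp1beta was at 2043 and 5065 CPM against 31.9 and 31.1, and Fbp1 at 7835 and 56.8 against 1894 and 1840, so the strains themselves differed in fat body transcripts.

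Muscle and tracheal genes gave 1 of 6 and 2 of 3 below wild type by the same rule, against 10.2% of all genes. DESeq2 called 0 of the muscle genes and 1 tracheal gene (trh). The summed muscle level was 149.8 and 238 CPM in wild type against 157 and 149, and the tracheal level 467 and 488 against 450 and 453. Act88F was at 1.98 and 1.19 CPM against 0.177 and 0.259, twi at 4.87 and 4.66 against 7.35 and 7.69, and Act57B at 80.0 and 97.8 against 69.6 and 65.9. Of the tracheal genes vvl was at 71.0 and 81.5 against 42.9 and 41.0, trh at 18.5 and 31.6 against 4.69 and 4.73, and Gasp at 378 and 375 against 402 and 408. No marker of these lists was at 0 in all 4 libraries, and their part in the glial values was not tested.

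The profile of repo over the 4 libraries, on log2 of CPM plus 1 centred on each gene's mean, was most like those of CG18343, mRpS17, CG9240, bou and Tmem43. Their distances from it were 0.036, 0.042, 0.044, 0.055 and 0.059 in the same order. mRpS17, a mitochondrial ribosomal protein gene, had 22.7 and 17.96 CPM in the wild-type strains against 27.98 and 24.6. With 4 libraries, a close match of this kind is a description of these libraries only.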

How the data were processed

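RNA was sequenced from eye-antennal discs of Canton S, RAL-208 and gl[60j] larvae, and the TruSeq kit was used, per the labels' protocols. The submitters' processing notes list dm3 as the build and HTSeq, TopHat2 2.0 and CASAVA 1.8 as tools. Strand setting and annotation version are not stated there. The values deposited by the authors are raw read counts per gene, 1 table per library. The counter's summary lines, 23.3% to 25.6% of counted reads, were left out.

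Symbols were matched by FlyBase identifier for 13746 of 14885 genes. The reference (BDGP6, Ensembl) is not dm3, so no coordinates are given. In it CG7156 shares 6.11% of the exonic bases of repo and CG31709 5.89% of those of gcm. Both neighbours have counts of their own, and reads the counter called ambiguous (1.35% to 1.44% per library) were left out. Antisense RNAs that have no counts here share 13.4% of the exonic bases of loco and 10.2% of those of ogre. Reads of these RNAs may not be told apart from those of loco and ogre. Sequences are not shown.

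The mutant libraries, as technical replicates, were summed. Testing used edgeR 4.0.16 (R 4.3.3), by its quasi-likelihood F test, with TMM factors 1.01, 1.02 and 0.966. The filter filterByExpr, at a minimum count of 10 on the 4 libraries, kept 9059 genes, and p-values were adjusted over them by Benjamini-Hochberg. With 1 residual degree of freedom, the mutant is assumed to vary like the wild types, and p-values measure the spread between the strains alone. SE is the log2 fold change divided by the square root of F. DESeq2 1.42.0 (which gave no adjusted p for 176 genes, none of them among the 10) and limma 3.58.1 used the same columns. The edgeR, DESeq2 and limma fits of these columns were run on simulated counts with a common dispersion. Those runs checked the size and sign of the fold change, not the calls, and the other alternatives were not simulated. Folds and levels are CPM without TMM. Intervals are exact at 95% and cover counting error only. Apart from them, 3 reads (0.111 to 0.266 CPM) were taken as a floor for a count of 0, which entered no level, fold or test.

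The members and gene lists were chosen with earlier results of these data known. Named are all members, the 3 genes with the smallest p and the most abundant one of each other list, and the 5 genes nearest repo in profile. VGlut, Vmat and pros stand in 2 lists each. Names without a match (Oaz, zyd, axo, CG4797, Ntl, Nrg, Mcr, aka, scrib, Inx3, chp, VAChT, para, Trh, Mhc, wupA, btl) are not analysed here, and Inx5, Inx6, zpg and Mdr50 did not pass the filter.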

Additional observations from a re-analysis of the deposited data

How the results depend on the processing

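Among fitted log2 fold changes of the 10 genes under alternatives with a test, 72 kept the direction and side of the threshold and 8 passed it. Among those without a test, each against 1 wild type, 19 kept the direction and 1 changed sign. That one was Gs2, at 0.078 without RAL-208 and -1.48 without Canton S. The count of called glial genes went from 0 to 3 with DESeq2 and to 5 (loco, Mdr65, Eaat1, wrapper, ogre) with both mutant libraries as separate samples, where the count over all genes went from 0 to 538 and 1754. Entering technical replicates as samples makes p-values too small. Both counts were 0 with DESeq2 size factors in edgeR, with library size alone, with limma-voom (1803 genes at an unadjusted p under 0.05, and 1506 in edgeR), with no filter on low counts, and without either mutant library (0 to 0). Without a wild type no residual degree of freedom is left, so those fold changes have no test. The count of glial genes at least 2-fold apart was 3 with CPM plus 0.1 and with TMM scaling, 9 at any fold, and ran from 3 to 5 without each library, the 5 without Canton S. No paired analysis was possible because both mutant libraries come from 1 sample and the labels number no wild-type library. Depth limits gcm and Eaat1 most, at 37 to 111 mutant reads.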
